A study of Drosophila melanogaster with 4 samples.

Results

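The aminoacyl-tRNA synthetase genes were examined in RNA-seq of *Drosophila* ovaries from 2 genotypes. They were chosen by name, as protein-coding genes whose current symbol is an amino acid code followed by RS, with or without the mitochondrial ending -m, together with *GluProRS*. This gave 33 genes in the reference, and 31 of them were found by identifier among the 17023 genes of the count files. Of these, 14 carry the mitochondrial ending, and the 17 without it are called cytosolic here. For the cytosolic *LeuRS* and the mitochondrial *PheRS-m* no identifier could be paired, and both are not analysed here. The genes *alpha-PheRS* and *beta-PheRS*, which encode the subunits of the cytosolic phenylalanine enzyme, fall outside the naming rule and are given with the partner genes.

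The first genotype, >*bam* RNAi; *aramis* RNAi, carried *UAS-Dicer2* and *NosGAL4* with RNAi constructs against both *bam* and *aramis*. The other, >*bam* RNAi, carried the same driver with the *bam* construct alone, so *bam* RNAi in the germline was common to every library. *NosGAL4* drives expression in germline cells, and *bam* is required for the germline to pass from cystoblast to dividing cyst. *aramis*, listed under its current symbol *ais*, encodes a DEAD-box RNA helicase. Whole ovaries of flies aged 1 to 3 days were dissected, so somatic cells were part of each sample. There were 2 libraries of each genotype, which the labels number as replicates without saying how many animals each held.

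A synthetase joins an amino acid to its tRNAs at the cost of ATP, and the charged tRNAs are what the ribosome uses to read codons. The cytosolic enzymes supply the translation of nuclear mRNAs, whereas the mitochondrial enzymes, also encoded in the nucleus, are imported to charge mitochondrial tRNAs for the few proteins made from mitochondrial DNA. Most amino acids have a separate gene for each compartment. No gene with the ending -m was listed for glycine, histidine, lysine, threonine or glutamine, and in animals *GlyRS* and *LysRS* homologs are known to give rise to both forms of the enzyme. *GluProRS* encodes a fused enzyme for glutamate and proline.

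The 4 libraries held between 11882367 and 13348602 counts, and 3 counts corresponded to between 0.225 and 0.252 CPM, a floor that covers counting error only. *ais* had 149 and 161 counts in >*bam* RNAi; *aramis* RNAi and 454 and 507 counts in >*bam* RNAi, a log2 fold change of -1.37 (edgeR, adjusted p = 3.3e-04). *bam* had 16 and 17 counts in >*bam* RNAi; *aramis* RNAi and 35 and 25 counts in >*bam* RNAi, which were not separated by the test (adjusted p = 0.262). The cell type markers moved between the genotypes (all fold changes in the text are those of >*bam* RNAi; *aramis* RNAi over >*bam* RNAi). Of 13 germline markers, 12 fell and 1 rose (edgeR, adjusted p under 0.05), with a median log2 fold change of -1.54. At this threshold 25.0% of all genes tested fell and 25.4% rose. Of 15 somatic ovary markers, 8 rose and 2 fell, with a median of 0.53, and 5 of 5 measured muscle sheath markers rose. The markers of egg chambers, all 6 of which fell, summed to 2294 and 279 TPM in >*bam* RNAi; *aramis* RNAi and to 15217 and 54132 TPM in >*bam* RNAi. The replicates of each genotype thus stood apart from each other, by a larger ratio in >*bam* RNAi; *aramis* RNAi and by more TPM in >*bam* RNAi. None of the markers measured was at 0 in all libraries.

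mRNAs of the cytosolic synthetases were more abundant than those of the mitochondrial ones in every library. Levels are given as TPM, in which counts are divided by the exon length of the gene, so that genes can be compared. The 17 cytosolic genes summed to 1626 and 1557 TPM in >*bam* RNAi; *aramis* RNAi and to 2350 and 2275 TPM in >*bam* RNAi. The 14 mitochondrial genes summed to 321 and 303 TPM in >*bam* RNAi; *aramis* RNAi and to 455 and 434 TPM in >*bam* RNAi. Both sums were lower in each of the >*bam* RNAi; *aramis* RNAi libraries than in either >*bam* RNAi library. In whole ovaries, fewer cells of a type and less RNA per cell cannot be told apart. The ratio of the cytosolic to the mitochondrial sum was 5.07 and 5.14 in >*bam* RNAi; *aramis* RNAi, against 5.16 and 5.24 in >*bam* RNAi. The cytosolic class includes *GlyRS*, *LysRS* and other genes without a -m partner. It may thus hold mRNA that also supplies mitochondria, a part that was not measured.

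The median cytosolic gene was at 97.9 ± 4.43 TPM in >*bam* RNAi; *aramis* RNAi and at 146 ± 4.26 TPM in >*bam* RNAi (SD, n = 2 each). The median mitochondrial gene was at 19.5 ± 1.35 TPM in >*bam* RNAi; *aramis* RNAi and at 26.9 ± 2.93 TPM in >*bam* RNAi (SD, n = 2 each). The ranges of the classes overlapped, because *AspRS-m* lay among the cytosolic genes and *AspRS* among the mitochondrial ones, as the plot of mRNA levels in each library shows.

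**Figure D1:**
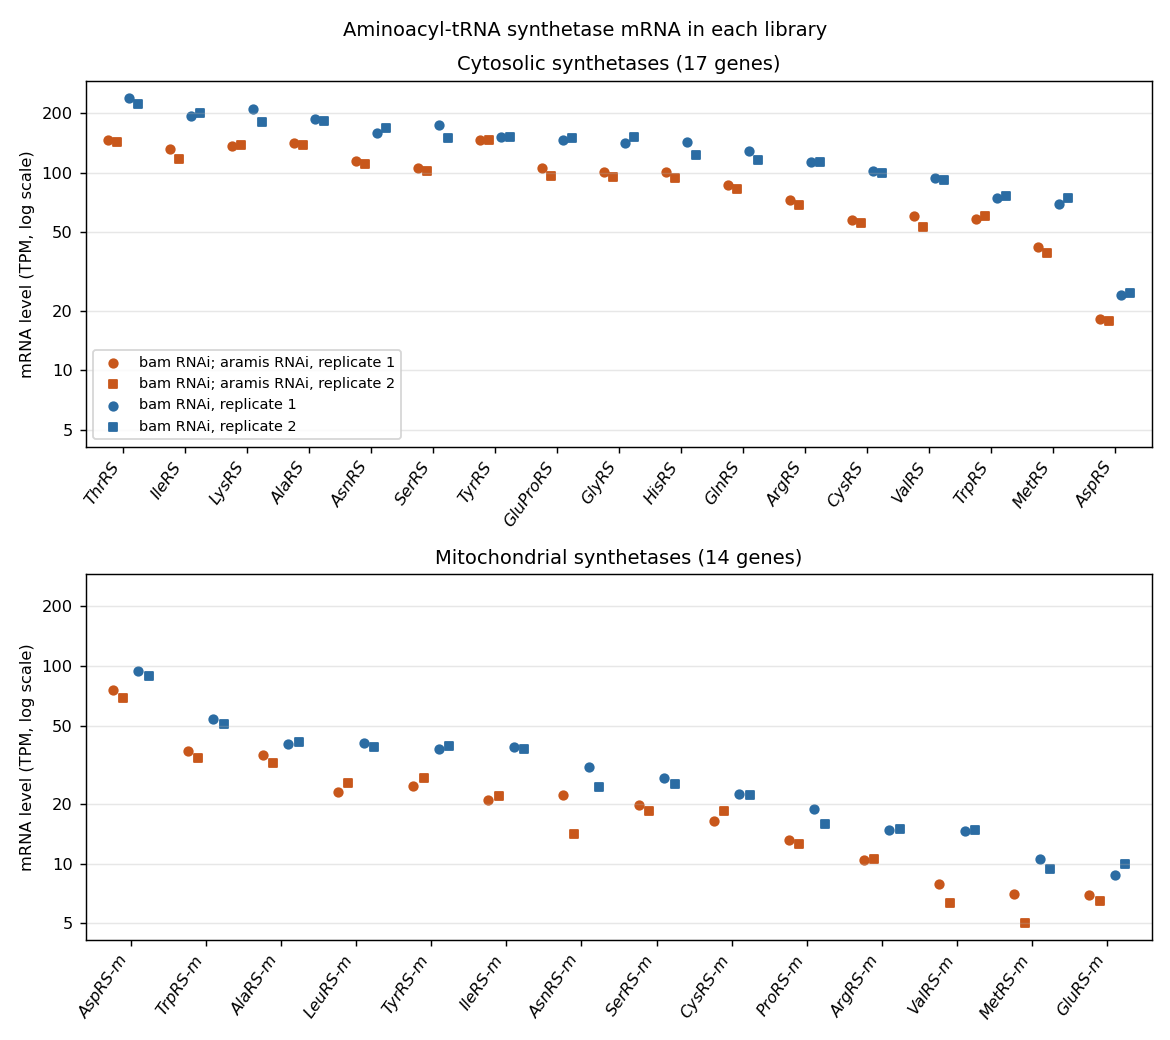
mRNA level in TPM (log axis) of each synthetase gene, cytosolic above and mitochondrial below, with 1 point per library, >*bam* RNAi; *aramis* RNAi in orange and >*bam* RNAi in blue, and genes ordered by their mean in >*bam* RNAi. On this scale, which carries no TMM factor, the 2 orange points lie below the 2 blue points for all 31 genes, with the narrowest gap at *TyrRS*. The share of all genes in this order was not counted in TPM. In TMM-scaled CPM it was 40.0%, beside 30 of the 31 synthetases.

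*ThrRS*, the threonine enzyme, had the highest mean of exon-length TPM over the 4 libraries pooled, with 146 and 142 TPM in >*bam* RNAi; *aramis* RNAi and 239 and 222 TPM in >*bam* RNAi. It was the most abundant in >*bam* RNAi alone: in >*bam* RNAi; *aramis* RNAi *TyrRS*, the tyrosine enzyme, lay above it in both libraries, at 147 TPM in each, by less than the spread of *ThrRS* (144 ± 2.83 TPM, SD, n = 2). In >*bam* RNAi *ThrRS* was followed by *IleRS*, *LysRS* and *AlaRS*, at 197 ± 5.37, 196 ± 21.0 and 185 ± 2.21 TPM (SD, n = 2 each). These 3 neighbours did not differ beyond the spread of *LysRS*. At the other end of the cytosolic genes, *AspRS*, the aspartate enzyme, had 18.1 and 17.7 TPM in >*bam* RNAi; *aramis* RNAi and 24.0 and 24.5 TPM in >*bam* RNAi.

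The low value of *AspRS* depends on how shared exons are treated. The gene lies on the plus strand of chromosome arm 2R from 12877004 to 12883168 (BDGP6, dm6 coordinates), and 73.5% of its 2266 exon bases are also exon of another gene of the count files, chiefly the antisense RNA *asRNA:CR45141*, which had 0 counts in all 4 libraries. Across the files, 55 of 60 protein-coding genes whose exons lie wholly under genes of the opposite strand had 0 counts in all libraries, a share of 91.7%, against 15.7% of 9378 protein-coding genes that share no exon base with a gene of the opposite strand. When the 601 exon bases that *AspRS* shares with no other gene were taken as its length, *AspRS* was at 65.9 and 64.7 TPM in >*bam* RNAi; *aramis* RNAi and at 87.3 and 89.2 TPM in >*bam* RNAi. Its level among the cytosolic genes is therefore uncertain.

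Of the mitochondrial genes, *AspRS-m* was the most abundant, with 75.3 and 69.1 TPM in >*bam* RNAi; *aramis* RNAi and 94.8 and 88.7 TPM in >*bam* RNAi. The next, *TrpRS-m*, had 37.0 and 34.4 TPM in >*bam* RNAi; *aramis* RNAi and 54.0 and 50.6 TPM in >*bam* RNAi. *MetRS-m* and *GluRS-m* had the lowest means of exon-length TPM over the 4 libraries pooled and were not separated by their spread. *MetRS-m* had 7.07 and 4.999 TPM in >*bam* RNAi; *aramis* RNAi and 10.5 and 9.39 TPM in >*bam* RNAi. *GluRS-m* had 6.93 and 6.51 TPM in >*bam* RNAi; *aramis* RNAi and 8.75 and 9.96 TPM in >*bam* RNAi. In >*bam* RNAi; *aramis* RNAi *ValRS-m*, at 7.89 and 6.33 TPM, overlapped both. With coding length in place of exon length *MetRS-m* lay above *GluRS-m* and *ValRS-m* in every library, so the order at the low end depends on the length used.

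To ask whether the genotypes differed, each gene was tested with edgeR's quasi-likelihood test after TMM normalization, which rescales the libraries to a common reference across genes. All 31 synthetase genes passed the filter on low counts. With an adjusted p under 0.05, 22 of the 31 fell in >*bam* RNAi; *aramis* RNAi and none rose, while 50.4% of all 9115 genes tested passed this threshold, 25.0% as falls and 25.4% as rises. None of the synthetases was higher at an unadjusted p under 0.05, and none was higher in DESeq2, where 18 fell beside 17.8% of all genes. The counts by compartment were 14 of 17 cytosolic genes and 8 of 14 mitochondrial genes. In 30 of the 31 genes both >*bam* RNAi; *aramis* RNAi libraries were below both >*bam* RNAi libraries in TMM-scaled CPM, while 40.0% of all genes showed this order and 37.2% the opposite one. The falls were small: no synthetase changed over 4-fold, whereas 3.36% of all genes did with an adjusted p under 0.05.

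The median log2 fold change was -0.43 for the cytosolic genes, that is 0.744-fold, and -0.41 for the mitochondrial genes, or 0.755-fold, beside -0.02 for all genes tested. The medians of the classes differed by -0.02 (cytosolic minus mitochondrial). For scale, the difference between the class medians of TMM-scaled log2 CPM was taken in each library. The SDs of this value between replicates of each genotype, combined as the root of their summed squares, came to 0.187. This is a spread of class medians of level, not of the median fold changes. With 2 libraries against 2 an exact two-sided permutation test cannot give a p below 0.333, so the difference of -0.02 was not tested. Single genes ranged from -0.71 to 0.08 among the cytosolic and from -0.94 to -0.14 among the mitochondrial enzymes. The fewer calls among mitochondrial genes went with lower counts, from 56 to 2294 against 195 to 4746 for cytosolic genes, and with a larger median standard error of 0.139 against 0.0807.

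The size of the falls depended on the scaling. With library totals in place of TMM factors the median of all genes moved to -0.21, with 1684 genes higher and 3346 lower against 2312 and 2278, and 16 cytosolic and 13 mitochondrial genes then fell, beside 36.7% of all genes. The calls also rested on both >*bam* RNAi libraries. Without replicate 1 of >*bam* RNAi, 7 cytosolic and 0 mitochondrial genes fell, beside 6.69% of all genes tested in that fit. Without replicate 2 of >*bam* RNAi, the library highest in egg chamber markers, 5 and 0 did, beside 5.94% of all genes. In these 2 fits 4 and 5 mitochondrial genes were lower at an unadjusted p under 0.05 in edgeR. Without replicate 2 of >*bam* RNAi; *aramis* RNAi, 5 mitochondrial genes fell, beside 18.0% of all genes. In each of the fits with 1 library left out, 16 of the 17 cytosolic and 14 of the 14 mitochondrial fold changes were negative. These fits reuse the same libraries, so the signs are not separate evidence.

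**Figure D2:**
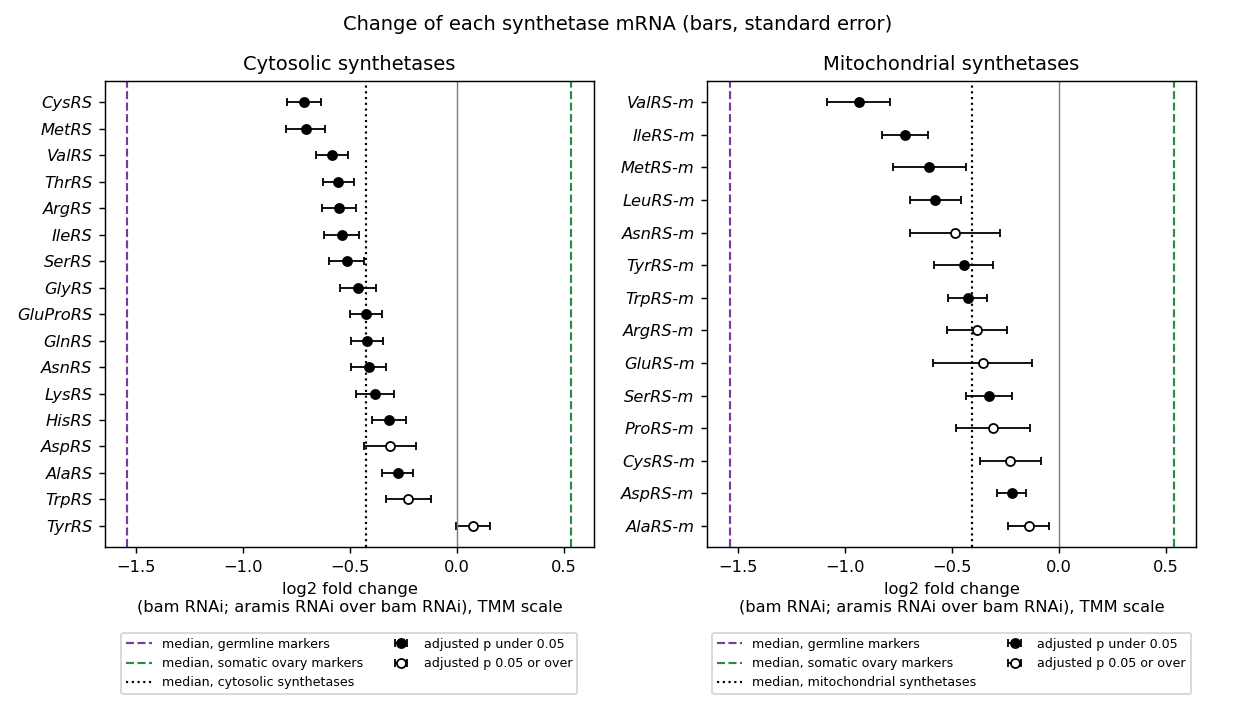
log2 fold change of each synthetase gene with its standard error, >*bam* RNAi; *aramis* RNAi over >*bam* RNAi on the TMM scale, cytosolic left and mitochondrial right, with filled points for an adjusted p under 0.05. The genes lie between the median of the germline markers at -1.54 and that of the somatic ovary markers at 0.53, *TyrRS* at 0.08 is the sole positive value (-0.12 with library totals as scaling), and the class medians are -0.43 and -0.41.

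The largest falls among the cytosolic genes were in *CysRS* and *MetRS*, which charge cysteine and methionine tRNAs. *CysRS* had 57.7 and 55.6 TPM in >*bam* RNAi; *aramis* RNAi against 102 and 100.04 TPM in >*bam* RNAi. On the log2 scale it fell by 0.71 (adjusted p = 7.4e-04, standard error 0.0801), which is 39.0%. *MetRS*, which also provides the initiator methionyl-tRNA, had 41.9 and 39.2 TPM in >*bam* RNAi; *aramis* RNAi against 69.8 and 74.2 TPM in >*bam* RNAi. Its log2 fold change was also -0.71 (adjusted p = 0.00116, standard error 0.0905). In neither gene did the libraries of the genotypes overlap, and the adjusted p of both genes stayed under 0.05 with any single library left out.

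*ValRS*, *ThrRS* and *ArgRS* followed, with log2 fold changes of -0.58, -0.55 and -0.55. *ValRS*, the valine enzyme, had 60.4 and 53.0 TPM in >*bam* RNAi; *aramis* RNAi and 93.4 and 91.4 TPM in >*bam* RNAi. *ArgRS*, which charges arginine tRNAs, had 72.9 and 68.7 TPM in >*bam* RNAi; *aramis* RNAi and 113 TPM in each >*bam* RNAi library. For *ThrRS*, *ValRS* and *ArgRS* the genotypes were again separated without overlap, and the adjusted p was 0.00123, 0.00112 and 0.00189. *IleRS*, *SerRS*, *GlyRS*, *GluProRS*, *GlnRS*, *AsnRS*, *LysRS*, *HisRS* and *AlaRS* fell too, from -0.54 for *IleRS* to -0.28 for *AlaRS*, with adjusted p-values up to 0.0192.

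Of the cytosolic genes, 3 did not pass the threshold. *AspRS* was at -0.31 (95% interval -0.60 to -0.02, adjusted p = 0.0703) and *TrpRS*, the tryptophan enzyme, at -0.23 (95% interval -0.48 to 0.02, adjusted p = 0.113). *TyrRS* stood apart from the others and was singled out after its values were seen. The gene lies on the minus strand of arm 3L from 16417349 to 16419302, shares no exon base with another gene, and lies close to *GluRS-m*, which runs from 16415292 to 16417177 on the same strand. It had 147 and 147 TPM in >*bam* RNAi; *aramis* RNAi and 151 and 152 TPM in >*bam* RNAi. On the TMM scale it was at 0.08 (adjusted p = 0.459, 95% interval -0.11 to 0.27), and with library totals as scaling it was -0.12 (adjusted p = 0.246), so that its sign depended on the scaling and no change was detectable under either.

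Among the mitochondrial genes, *ValRS-m* had the largest fall of the 31, with 7.89 and 6.33 TPM in >*bam* RNAi; *aramis* RNAi against 14.7 and 14.8 TPM in >*bam* RNAi. This was -0.94 on the log2 scale (adjusted p = 0.00252, standard error 0.147), or a fall of 47.7%, measured from between 106 and 282 counts per library. *IleRS-m*, which charges mitochondrial isoleucine tRNA, had 21.0 and 21.97 TPM in >*bam* RNAi; *aramis* RNAi against 39.0 and 38.2 TPM in >*bam* RNAi, and was at -0.72 (adjusted p = 0.00205, standard error 0.108). *LeuRS-m* had 23.1 and 25.7 TPM in >*bam* RNAi; *aramis* RNAi and 41.0 and 38.7 TPM in >*bam* RNAi, and was at -0.58 (adjusted p = 0.00704). The libraries of the genotypes did not overlap in any of these 3 genes.

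Smaller or less certain falls were found in other mitochondrial enzymes. *MetRS-m* was at -0.61 (adjusted p = 0.0250), with its replicates of >*bam* RNAi; *aramis* RNAi at 7.07 and 4.999 TPM. *TyrRS-m* had 24.9 and 27.1 TPM in >*bam* RNAi; *aramis* RNAi and 37.9 and 39.4 TPM in >*bam* RNAi, a log2 fold change of -0.45 (adjusted p = 0.0321). In both genes the >*bam* RNAi; *aramis* RNAi libraries were the lower ones, without overlap. *TrpRS-m*, at -0.43 (adjusted p = 0.00843), *SerRS-m*, at -0.33 (adjusted p = 0.0415), and *AspRS-m*, at -0.22 (adjusted p = 0.0324), made up the rest of the calls. In DESeq2, 4 of these 8 genes, *MetRS-m*, *TyrRS-m*, *SerRS-m* and *AspRS-m*, had adjusted p-values of 0.0775, 0.133, 0.253 and 0.147. *SerRS-m* shares 13.9% of its exon bases with *Nagk* on the opposite strand.

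The 6 mitochondrial genes that did not pass the threshold had log2 fold changes from -0.49 for *AsnRS-m* to -0.14 for *AlaRS-m*. *AsnRS-m* had 22.1 and 14.2 TPM in >*bam* RNAi; *aramis* RNAi and 30.8 and 24.3 TPM in >*bam* RNAi, and its 95% interval of -0.99 to 0.02 leaves room for a fall as large as that of *ValRS-m*. *ArgRS-m*, *GluRS-m*, *ProRS-m* and *CysRS-m* were at -0.38, -0.36, -0.31 and -0.23, with adjusted p-values from 0.0602 to 0.236. Of these, *ArgRS-m* and *CysRS-m* share 11.8% and 14.3% of their exon bases with genes of the opposite strand, *mRpS9* and *CG13016*.

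The enzymes for the same amino acid in both compartments could be compared for 13 amino acids, with *GluProRS* set against both *GluRS-m* and *ProRS-m*. In 12 of the 13 the cytosolic mRNA exceeded the mitochondrial mRNA in every library. *GluProRS* exceeded *GluRS-m* 15.3- and 14.8-fold in >*bam* RNAi; *aramis* RNAi and 16.7- and 14.9-fold in >*bam* RNAi, the widest ratios measured. *TrpRS* exceeded *TrpRS-m* 1.57- and 1.75-fold in >*bam* RNAi; *aramis* RNAi and 1.38- and 1.51-fold in >*bam* RNAi, the narrowest of the 12. The exception was aspartate, where the ratio of *AspRS* to *AspRS-m* was 0.241 and 0.257 in >*bam* RNAi; *aramis* RNAi and 0.253 and 0.276 in >*bam* RNAi. With unshared exon bases as length this ratio was 0.901 and 0.961 in >*bam* RNAi; *aramis* RNAi and 0.948 and 1.04 in >*bam* RNAi, so these mRNAs could not be put in order.

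**Figure D3:**
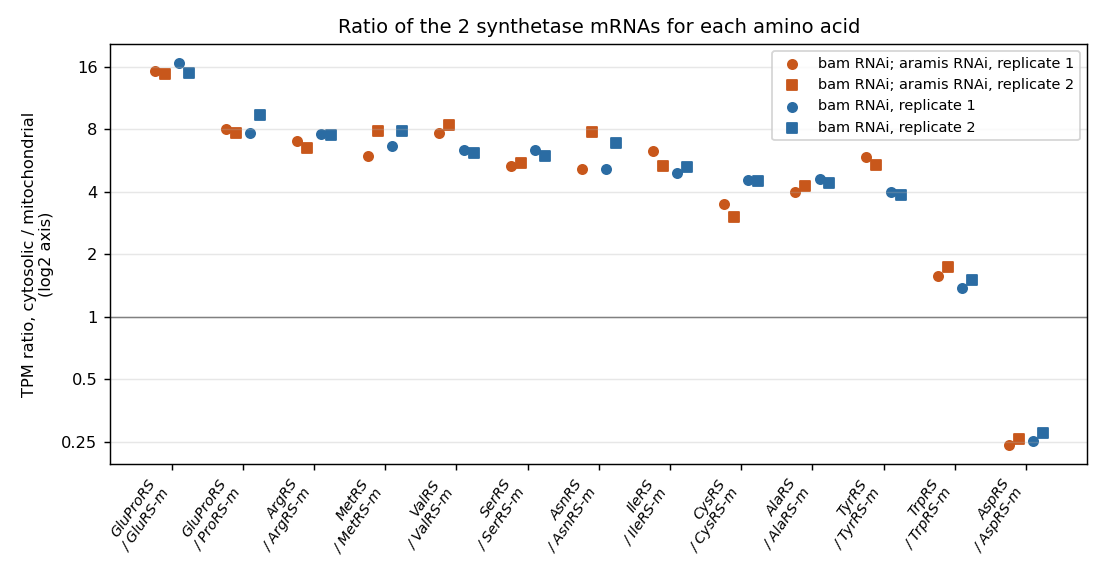
Ratio of cytosolic to mitochondrial mRNA in TPM (log2 axis) for the 13 amino acids with both enzymes, 1 point per library, >*bam* RNAi; *aramis* RNAi in orange and >*bam* RNAi in blue. The orange points lie above the blue ones for Tyr, Val, Ile and Trp, below them for Cys, Ala, Arg and Ser, and among them for the other 5, and *AspRS* to *AspRS-m* lies below 1.

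These ratios do not depend on the scaling of the libraries. They were higher in both >*bam* RNAi; *aramis* RNAi libraries for 4 amino acids, lower in both for 4, and overlapped for 5. The difference between the log2 fold changes of the enzymes (cytosolic minus mitochondrial) exceeded 2 combined standard errors for 3 amino acids, which is given as a description over 13 comparisons and not as a test. For tyrosine it was 0.52 (combined standard error 0.157), with *TyrRS* to *TyrRS-m* at 5.90 and 5.41 in >*bam* RNAi; *aramis* RNAi against 3.99 and 3.86 in >*bam* RNAi. For valine it was 0.35 (combined standard error 0.165), with *ValRS* to *ValRS-m* at 7.66 and 8.38 in >*bam* RNAi; *aramis* RNAi against 6.36 and 6.17 in >*bam* RNAi. For cysteine it ran the other way, at -0.49 (combined standard error 0.165), with *CysRS* to *CysRS-m* at 3.51 and 3.02 in >*bam* RNAi; *aramis* RNAi against 4.56 and 4.52 in >*bam* RNAi. Both enzymes fell for 4 amino acids (isoleucine, methionine, serine and valine), the cytosolic enzyme alone passed the threshold for 6, and the mitochondrial enzyme alone for 3. Among all genes tested, each taken singly, 25.0% fell.

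In mammals 8 cytosolic synthetase genes encode the enzymes of a multisynthetase complex, held together by scaffold proteins. The fly genes of that set measured here, *GluProRS*, *IleRS*, *MetRS*, *GlnRS*, *LysRS*, *ArgRS* and *AspRS*, had a median log2 fold change of -0.43, and 6 of the 7 fell. The other 10 cytosolic genes had a median of -0.44, and 8 fell. Among all genes tested, 25.0% fell. The complex genes ran from -0.71 to -0.31 and the others from -0.71 to 0.08, so the sets overlapped.

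Several genes that act with the synthetases fell too. Of 8 partner genes tested, 5 fell and none rose (none also at an unadjusted p under 0.05 in edgeR), with a median log2 fold change of -0.43. Among all genes tested, 25.0% fell and 25.4% rose. The phenylalanine subunit genes *beta-PheRS* and *alpha-PheRS* were at -0.69 (adjusted p = 0.00101) and -0.49 (adjusted p = 0.00959). *beta-PheRS* had 804 and 900 counts in >*bam* RNAi; *aramis* RNAi and 1571 and 1708 counts in >*bam* RNAi, and *alpha-PheRS* had 662 and 801 counts in >*bam* RNAi; *aramis* RNAi and 1162 and 1298 counts in >*bam* RNAi. The scaffold genes *AIMP1*, *AIMP2* and *AIMP3*, whose mammalian counterparts belong to the complex, fell as well, by 0.51, 0.34 and 0.37 on the log2 scale. *Slimp*, which encodes a mitochondrial protein related to seryl-tRNA synthetase, was at 0.04 (adjusted p = 0.860). *GatA* and *GatB*, subunits of the mitochondrial amidotransferase that makes glutaminyl-tRNA, were at -0.31 and -0.51 and did not pass the threshold. *GatC*, for the remaining subunit, had 0 counts in every library, and all of its 1570 exon bases are also exon of another gene. The genes of this list beyond the 4 largest changes are named outside the rule, to account for the whole list.

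Of 16 genes measured from the tRNA processing and modification list, 12 fell and 1 rose, with a median of -0.62. The shares over all genes tested were 25.0% falls and 25.4% rises. The larger falls were in *Tgt*, which encodes a tRNA guanine transglycosylase, at -1.16, *Tsen54*, of the tRNA splicing endonuclease, at -0.87, and *La*, which binds the ends of new tRNA precursors, at -0.80. *HisT*, which rose by 1.03, was listed by its symbol and its role is not certain. Of 15 genes tested for mitochondrial transcription, replication and translation, 8 fell and none rose (none also at an unadjusted p under 0.05 in edgeR), with a median of -0.36. They were led by *PolG1*, the catalytic subunit of mitochondrial DNA polymerase, at -0.99, the mitochondrial RNA polymerase *PolrMT* at -0.58, the mitochondrial DNA packaging factor *TFAM* at -0.57 and the elongation factor *mEFG1* at -0.56.

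Genes of the amino acid and stress response moved in both directions. In mammals the transcription factor ATF4, whose fly counterpart is *crc*, induces many cytosolic synthetase genes when amino acids are scarce. Of 14 genes of this response measured, 6 rose and 3 fell, beside 25.4% and 25.0% of all genes tested, with a median of 0.28. *Sesn*, *NLaz* and *Thor*, which encode sestrin, a lipocalin and the translation inhibitor 4E-BP, rose by 1.42, 1.34 and 1.23 on the log2 scale, while *Pepck2*, a phosphoenolpyruvate carboxykinase gene, fell by 3.70. *crc* itself, named outside the rule for size, was at 0.46 (adjusted p = 0.0108), with 12858 and 12036 counts in >*bam* RNAi; *aramis* RNAi and 9774 and 11896 counts in >*bam* RNAi.

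**Figure D4:**
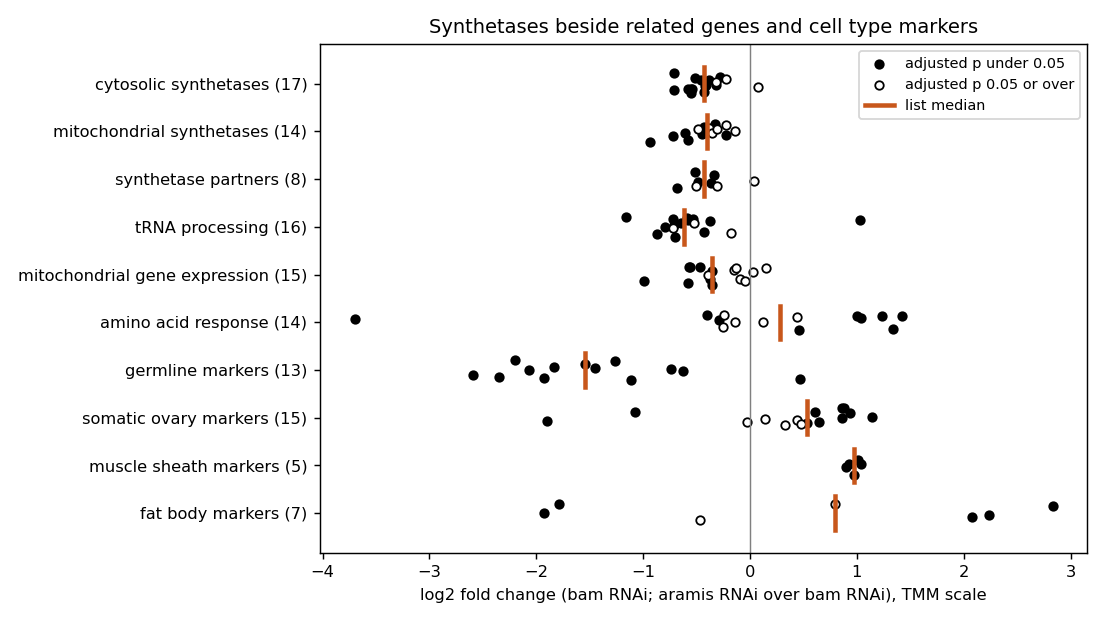
log2 fold change of >*bam* RNAi; *aramis* RNAi over >*bam* RNAi on the TMM scale for the synthetases, related genes and cell type markers, 1 point per gene tested with the number of genes beside each list, filled for an adjusted p under 0.05, and an orange bar at the list median. The synthetases span -0.94 to 0.08, a narrower range than the germline markers at -2.59 to 0.47 or the somatic ovary markers at -1.90 to 1.14.

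The cell type markers moved with these results, and their part in the falls of the synthetases was not tested. The 13 germline markers summed to 694 and 581 TPM in >*bam* RNAi; *aramis* RNAi and to 1454 and 1425 TPM in >*bam* RNAi. The 15 somatic ovary markers summed to 1401 and 1226 TPM in >*bam* RNAi; *aramis* RNAi and to 1093 and 973 TPM in >*bam* RNAi. *Fas3* held the largest part, with 545 and 483 TPM in >*bam* RNAi; *aramis* RNAi and 319 and 296 TPM in >*bam* RNAi. These markers did not move together: 8 rose, while *tj* fell by 1.08 and *upd1* by 1.90 on the log2 scale. The 5 muscle sheath markers measured summed to 25906 and 33565 TPM in >*bam* RNAi; *aramis* RNAi and to 18713 and 15400.5 TPM in >*bam* RNAi. Of 7 fat body markers, 3 rose and 2 fell, beside 25.4% and 25.0% of all genes tested.

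Both class medians of the synthetases lay between the medians of the germline and the somatic ovary markers. This was not particular to them: the median of all genes tested, at -0.02, lay there too. So did the medians of the partner, tRNA processing, mitochondrial gene expression and amino acid response lists. The egg chamber marker median was lower, at -4.35. The cytosolic median was 1.11 above and the mitochondrial median 1.13 above the germline marker median on the log2 scale. The cytosolic median was lower than the somatic ovary marker median by a difference of -0.96, and the mitochondrial median by one of -0.94. The single germline marker that rose, *tud*, at 0.47, lay above every synthetase.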

How the data were processed

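Bulk RNA-seq libraries from poly(A)-selected ovary RNA of 2 genotypes, 2 libraries each, were analysed. Genotypes and replicate numbers came from the sample labels, and p-values measure the spread between libraries, which may be technical. Each deposited file gives raw counts, as whole numbers for FlyBase gene identifiers, without normalization. The submitters' processing notes list HISAT2 2.1.0, featureCounts 1.4.6, DESeq2 1.24.0 and build dm6, without roles. The strand setting is not given in the sources used here.

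Symbols, positions and exon lengths came from Ensembl release 115 (BDGP6, dm6 coordinates), which matched 16647 of 17023 identifiers. TPM leaves out the other 376, to which 6.14% to 6.32% of counts belonged. Counts were tested with edgeR 4.0.16 in R 4.3.3 (minimum count 10, TMM, quasi-likelihood, Benjamini-Hochberg over 9115 genes, threshold 0.05). The functions were tested on simulated data. Standard errors are those implied by the F statistic. Values in every library are given for the 5 largest falls of each class among genes past the threshold and for the most and least abundant genes of each class, and listed genes are named where called, at most 4 a list. The genes and lists were chosen with earlier results of these data known. Alternatives were DESeq2 1.42.0, RLE, library totals, no filter, a replicate block, leaving out the 20 most abundant genes or each library, coding length and, chosen after seeing the data, exon bases shared with no other gene.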

Additional observations from a re-analysis of the deposited data

How the results depend on the processing

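The number of synthetase genes that fell was 22 (14 cytosolic and 8 mitochondrial), beside 25.0% of all genes tested. DESeq2 called 14 cytosolic and 4 mitochondrial genes, and library totals as scaling gave 16 and 13, with a cytosolic median log2 fold change of -0.62 and *TyrRS* reversed to -0.12. Leaving out each library gave 5 to 18 synthetases that fell, of which 5 to 13 were cytosolic and 0 to 6 mitochondrial, and a cytosolic median of -0.48 to -0.43. In those fits a genotype with a lone library is assumed to vary like the other, and 1461 and 1243 genes in all were called without replicate 1 and replicate 2 of >*bam* RNAi, against 4590. The replicate block in edgeR gave 22 falls, beside 2173 among all 9115 genes tested. In it *AsnRS-m* was called (adjusted p = 0.0424) and *SerRS-m* was not (adjusted p = 0.0685). Same-numbered libraries shared deviations with a correlation of 0.03 across genes. Shifts in opposite directions can cancel in such a value, and whether these libraries were prepared together was not tested. RLE and the filter on low counts moved no count by over 1.5 times. No alternative made a synthetase rise past the threshold.

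Coding length gave summed cytosolic levels of 987 TPM in >*bam* RNAi; *aramis* RNAi and 1464 TPM in >*bam* RNAi, and summed mitochondrial levels of 204 TPM in >*bam* RNAi; *aramis* RNAi and 296 TPM in >*bam* RNAi. With exon length these means were 1592 and 312 TPM in >*bam* RNAi; *aramis* RNAi and 2313 and 445 TPM in >*bam* RNAi. The counts were the same in both, and only the length that divides them differed, with genes without a coding length left out. Among the mitochondrial genes the standard error of the log2 fold change was largest for *GluRS-m*, at 0.230 from 56 to 99 counts. It was smallest for *AspRS-m*, at 0.068 from 1574 to 2294 counts. It did not follow counts alone: *AsnRS-m*, with 108 to 230 counts, had 0.210 and *ProRS-m*, with 95 to 145, had 0.173. The part of depth in the calls was not tested.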

Other observations

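Many of the larger falls were in 1 structural class of enzymes, a grouping made after the values were seen and given without a test. Synthetases are divided by their folds, and class Ia holds the enzymes for leucine, isoleucine, valine, methionine, cysteine and arginine. The 5 cytosolic genes of this class (*CysRS*, *MetRS*, *ValRS*, *ArgRS* and *IleRS*) all fell, beside 25.0% of all genes tested. Their median log2 fold change was -0.58, with a range of -0.71 to -0.54. The 12 other cytosolic genes had a median of -0.40, from -0.55 for *ThrRS* to 0.08 for *TyrRS*, whose sign depended on the scaling. Among the mitochondrial genes, the 6 of this class had a median of -0.59, against -0.34 for the 8 others. The 4 largest mitochondrial falls were *ValRS-m*, *IleRS-m*, *MetRS-m* and *LeuRS-m*, all of this class, but *ArgRS-m* at -0.38 and *CysRS-m* at -0.23 were less negative than *AsnRS-m* at -0.49, outside the class.

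Genes at 0 that overlap other genes were seen beyond *GatC*. *PolG2*, the accessory subunit of mitochondrial DNA polymerase, and *mtTFB1* each had 0 counts in all 4 libraries, and neither has an exon base outside the exons of other genes, so their values say nothing on expression. *PolG2* and *GatC* are annotated over the same interval of arm 2L, on the same strand.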
